A study of Rattus norvegicus with 6 samples.

Results

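Gene expression in the border of a brain infarct 14 d after stroke was compared with that in healthy brain of young male Sprague-Dawley rats. The comparison used 2 of the 6 arrays of the series, and each of the 2 groups was 1 array. The 14 d array held RNA of 19 rats, 3 to 4 months old, whose infarct had been made by lifting the middle cerebral artery with a hook for a limited time and whose periinfarcted tissue was taken. The naive array held RNA of 15 rats, 3 to 5 months old, that had no stroke. Both groups weighed 290 to 360 g, and the labels name neither a sham operation nor the brain region of the naive tissue. For each gene, the difference is the value on the 14 d array minus that on the naive array, taken on the probe set with the highest mean over the 6 arrays. The remaining arrays were used as reference points: young rats 3 d after stroke (19 rats, 3 to 4 months old), aged naive rats (15 rats, 18 to 20 months old), and aged rats 3 d and 14 d after stroke (23 rats on each array, 19 to 20 months old).

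Because each group was a single pool, no spread between animals could be seen and no difference was tested. All values below are on the deposited scale, used as log2, so a difference of 1 is 2-fold, and "higher" and "lower" mean a difference of at least 2-fold. In bulk tissue such as this, fewer cells of a type and less RNA per cell cannot be told apart.

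When brain tissue dies after an arterial occlusion, microglia, the resident macrophages of the brain, and macrophages from the blood take up debris and fat in its border. Astrocytes around the dead tissue become reactive and, with fibroblasts, lay down a scar. Interferons, secreted proteins of antiviral defence, switch on a set of genes through transcription factors that include IRF9 and bind a short element, the interferon-stimulated response element, near the start of these genes. Several of these genes stood among those with the largest differences at 14 d.

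The promoters of 4 interferon-induced genes that hold this element are shown. In each of them it began within 50 bases of the gene start, which was not a criterion of choice. They were chosen as the 4 interferon-induced genes with the largest difference among those that have a promoter in the RefSeq table and hold the element there. Usp18 and Ifitm1, with larger differences, were not matched in that table. The sequences are the 250 bases before the gene start, read 5′ to 3′ on the gene's own strand, from RefSeq on assembly GRCr8. Capitals mark the match to the core of the element, searched as TTTCNNTTTC or, on the other strand, GAAANNGAAA.
Lgals3bp promoter, chr10:104127849-104128098, minus strand: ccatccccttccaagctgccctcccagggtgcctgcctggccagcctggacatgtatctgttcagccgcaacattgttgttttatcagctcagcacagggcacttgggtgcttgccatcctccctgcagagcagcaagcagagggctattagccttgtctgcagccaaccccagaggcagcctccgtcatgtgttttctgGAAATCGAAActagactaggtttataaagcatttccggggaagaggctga
Ifitm3 promoter, chr1:205541759-205542008, minus strand: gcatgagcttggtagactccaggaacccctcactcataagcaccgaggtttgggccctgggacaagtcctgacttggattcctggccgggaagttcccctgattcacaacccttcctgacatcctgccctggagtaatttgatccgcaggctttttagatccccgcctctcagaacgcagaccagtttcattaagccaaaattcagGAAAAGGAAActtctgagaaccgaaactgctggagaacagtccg
Oas1a promoter, chr12:41330216-41330465, plus strand: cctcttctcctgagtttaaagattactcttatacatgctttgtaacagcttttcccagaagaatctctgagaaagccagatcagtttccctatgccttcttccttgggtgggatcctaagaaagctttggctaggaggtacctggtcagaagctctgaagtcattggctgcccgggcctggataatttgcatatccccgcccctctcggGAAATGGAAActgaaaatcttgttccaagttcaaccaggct
Gbp2 promoter, chr2:234005477-234005726, plus strand: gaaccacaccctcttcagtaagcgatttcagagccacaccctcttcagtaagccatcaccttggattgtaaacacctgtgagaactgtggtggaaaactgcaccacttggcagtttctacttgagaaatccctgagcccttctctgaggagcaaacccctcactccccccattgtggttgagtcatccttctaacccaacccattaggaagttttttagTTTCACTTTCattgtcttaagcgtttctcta

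The core began 50 bases before the start in Lgals3bp, 44 bases before it in Ifitm3, 41 bases before it in Oas1a and 31 bases before it in Gbp2. In Lgals3bp, Ifitm3 and Oas1a it was read as GAAANNGAAA on the gene's strand, and in Gbp2 as TTTCNNTTTC. A match of these letters is a description of the sequence and not evidence of binding.

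Of 14497 genes measured by a probe set with 1 symbol, 10947 reached the 40th percentile of an array on at least 1 of the 6 arrays. The medians over all probe sets were 7.09 on the naive and 7.15 on the 14 d array, and the values of the 2 arrays correlated with r = 0.979 across probe sets. Markers of neurons, oligodendrocytes and astrocytes lay at or above percentile 62.9 of the naive array, and those of microglia at or above percentile 69.6, so the cell types of brain tissue were present. Markers of striatal projection neurons, which are not cortical cells, lay between percentiles 81.3 and 94.0 there, although the series title names cortex. T cell markers lay at or below percentile 37.7 on both arrays. Among 399 genes with several probe sets, the median SD of the difference between probe sets of a gene was 0.110.

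At 14 d, 534 genes (4.88%) were higher and 38 genes (0.347%) were lower. The differences were lopsided in size as well as in number. Of the higher genes, 123 differed at least 4-fold and 17 at least 8-fold, whereas 2 of the lower genes, the beta globins Hbb-b1 and Hbb, differed at least 4-fold. At 1.5-fold, 1030 genes (9.41%) were higher and 523 (4.78%) lower. The median difference over all genes was -0.05, with quartiles of -0.25 and 0.18, and 56.4% of the genes were below 0. Among the 534 higher genes, 157 lay under the 40th percentile of the naive array, and their folds are the least certain. Of these, 39 lay under the lower quartile as well, among them Clec7a, Mx1, Usp18, Ifitm1, Lum, Scn7a, Mmp12 and Slfn4. Of the 38 lower genes, 11 lay under the 40th percentile of the 14 d array.

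**Figure D1:**
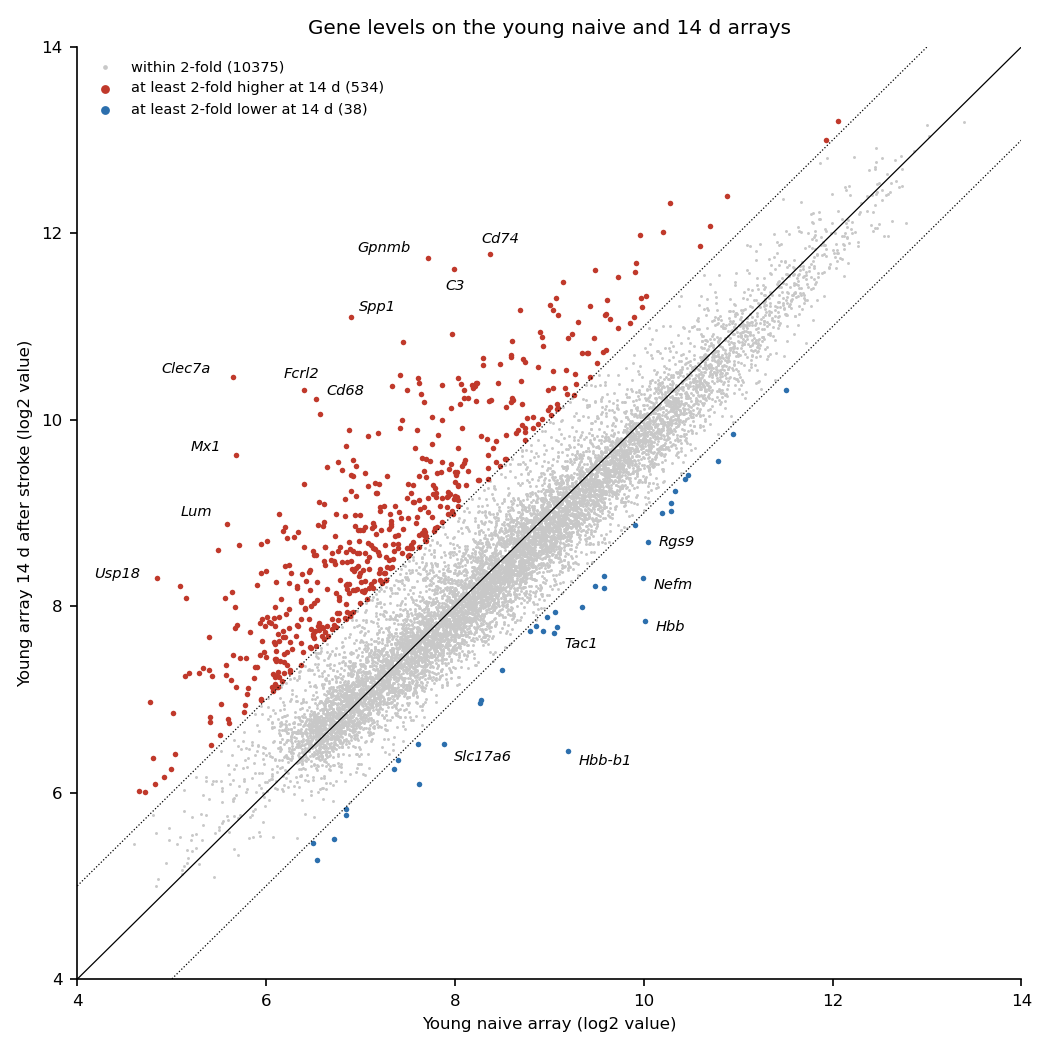
Level of each of 10947 genes on the young naive array (x axis, log2 value) and on the young 14 d array (y axis, log2 value), 1 pooled array each. Red points are the 534 genes at least 2-fold higher and blue points the 38 genes at least 2-fold lower; dotted lines mark 2-fold, the solid line equality, and Clec7a lies farthest above it.

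The largest differences belonged to genes of phagocytes, the cells that engulf debris. Clec7a, which encodes the receptor dectin-1 for fungal glucans and is carried by activated microglia and macrophages, was 5.64 in naive rats and 10.46 at 14 d, a difference of 4.81 or 28.1-fold, and its naive value lay under the lower quartile of that array. Spp1, which encodes the secreted phosphoprotein osteopontin, was 6.90 and 11.10, and Gpnmb, a glycoprotein of lipid-laden macrophages, was 7.72 and 11.74. The lysosomal membrane protein gene Cd68 was 6.53 and 10.22, and Lgals3, which encodes the sugar-binding protein galectin-3, was 6.57 and 10.07. In each of these genes the 14 d value was more than 8 times the naive value on the linear scale.

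Of 22 measured genes of phagocytic and lipid-laden macrophages, 14 were higher and 0 lower, with a median difference of 1.55 against -0.01 over all 14497 measured genes. The list was not uniform. The cathepsin genes of the lysosome differed less than the genes above: Ctsz was higher by 2.17, Ctsd by 1.52 and Ctss by 1.39, while Ctsl (0.95) and Ctsb (0.87) did not reach 2-fold. Abca1, which exports cholesterol from cells, was higher by 2.13, whereas its partner Abcg1 differed by 0.76. Apoe, the carrier of exported lipid, differed by 0.60, and Lpl, the lipoprotein lipase, was at -0.00. Of 20 genes of heme and iron handling, 3 were higher, beside 4.88% of all genes. They were Cp, Slc11a1 (6.45 and 7.87), a metal transporter of macrophages, and Hmox1. Hmox1, which breaks down heme, was 6.12 on the naive array, 8.56 at 3 d and 7.70 at 14 d.

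Genes listed for microglia were higher along with these. Of 15 measured microglial genes, 14 were higher, with a median of 1.66, and the fifteenth, Tmem119, differed by 0.77. P2ry12 and P2ry13, nucleotide receptors of resting microglia, were higher by 1.37 and 1.14, and the fractalkine receptor gene Cx3cr1 by 1.30. Larger differences were seen in Fcrl2 (3.92), an Fc receptor-like gene, in the integrin gene Itgam (2.65), in the signalling adaptor Tyrobp (2.48) and in the fructose transporter Slc2a5 (2.12). Itgam is also counted in the complement list, and Fcrl2 among the Toll-like and Fc receptors. The count and the median of the microglial list are therefore not specific to resting microglia. The part of macrophages from the blood in these values was not tested. Csf1r, the receptor for the growth factor that keeps microglia alive, was higher by 1.80, and its ligand Csf1 was 7.94 and 9.47.

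Genes of blood-borne myeloid cells were measured less well. Of 15 genes listed for monocytes and neutrophils, 7 were higher and 6 did not reach the 40th percentile on any array, among them S100a8, S100a9 and Mpo, which mark neutrophils. S100a8, S100a9 and Mpo differed by -0.07, -0.08 and 0.14, whereas Csf3r, a further neutrophil marker, was higher (7.13 and 8.62). Mmp8 of the same list was higher as well (5.43 and 7.25), from a naive value under the lower quartile of that array. The 7 higher genes were led by Ptprc (6.14 and 8.99), the common leukocyte antigen, and Fcgr2b (6.65 and 9.50), an inhibitory antibody receptor, both of which microglia also carry. The median over the 15 measured genes was 0.79, and over the 9 that reached the filter it was 2.01. Of 13 Toll-like and Fc receptor genes, which sense microbial products and antibodies, 12 were higher, including Tlr7 (2.29), Fcer1g (2.23) and Tlr3 (1.81).

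**Figure D2:**
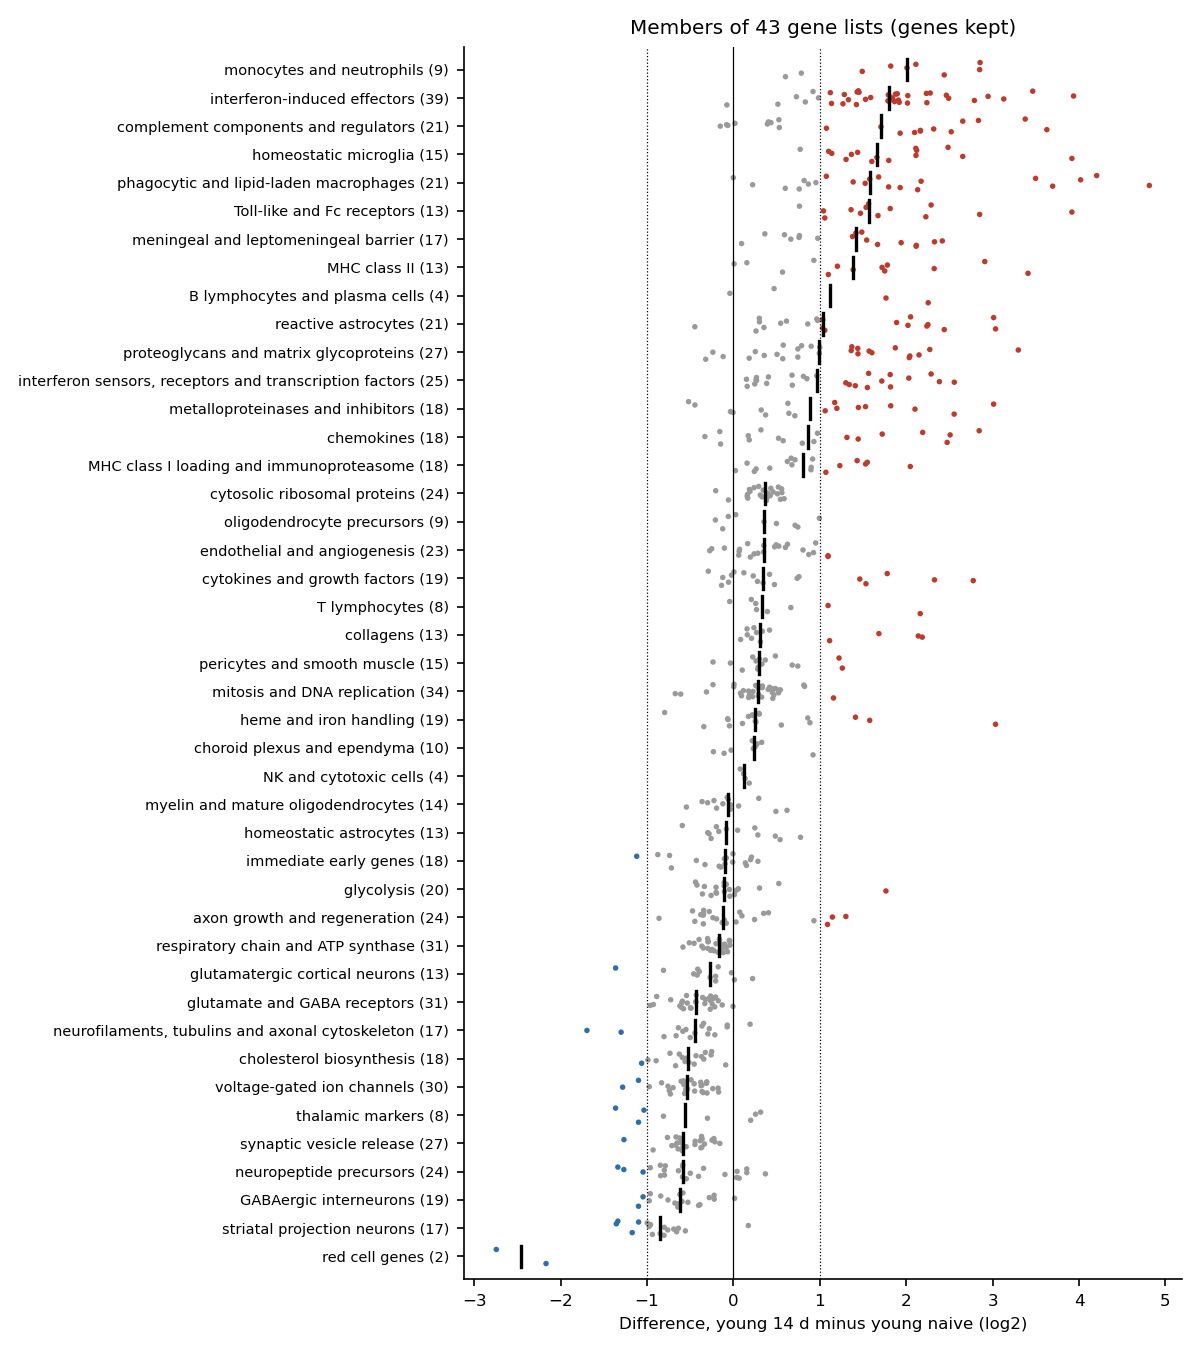
Differences of the members of the gene lists that reached the filter, 14 d minus naive in young rats on the log2 scale (x axis), 1 point per gene, red at least 2-fold higher, blue at least 2-fold lower, with a bar at each list's median and the number of members in brackets. The medians of the myeloid, interferon, complement and receptor lists lie to the right of 0, and those of the synaptic, channel and striatal neuron lists lie to its left, at -0.58, -0.54 and -0.85.

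Interferon-induced effector genes, which encode proteins that block viral replication, formed the list with the most higher members, and also the longest list. Of 40 measured genes, 33 were higher and 0 lower, with a median of 1.80. A larger share was higher among microglial genes (14 of 15) and among Toll-like and Fc receptor genes (12 of 13). Over all genes that reached the filter 4.88% were higher, and without the filter 535 of 14497 genes were. Mx1, a GTPase that blocks viral replication, was 5.68 in naive rats, 8.04 at 3 d and 9.62 at 14 d. Usp18, which removes the ubiquitin-like protein ISG15 and damps interferon signalling, was 4.84, 7.09 and 8.31. Ifitm1, a membrane protein that hinders viral entry, was 5.09, 8.95 and 8.22. Mx1 and Usp18 stood higher at 14 d than at 3 d, and Ifitm1 did not. These 3 genes lay under the lower quartile of the naive array, so their folds are uncertain.

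The 4 genes whose promoters are shown had naive levels above that quartile. Gbp2 and Oas1a (6.33 on the naive array) still lay under the 40th percentile of that array, so their folds are uncertain as well. Lgals3bp, a secreted glycoprotein, was 7.97 and 10.92, Gbp2, a guanylate-binding GTPase, was 6.40 and 8.64, and the differences of Ifitm3 and of Oas1a, an enzyme that senses double-stranded RNA, were 2.49 and 2.46. Other members spread widely. Ifi47 was higher by 2.79, Rtp4 by 2.28, Rsad2 by 2.23, Isg15 by 1.82 and Eif2ak2 by 1.13. The members that reached the filter and stayed within 2-fold were Igtp (0.98), Trim21 (0.92), Herc6 (0.83), Isg20 (0.73), Cmpk2 (0.51) and Adar (-0.08), an RNA-editing enzyme. In aged rats the median of the list was 2.30.

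Upstream of these effectors, 12 of 27 measured sensors, receptors and transcription factors of the interferon system were higher, with a median of 0.85. Irf7, a transcription factor that drives interferon genes, was 6.56 in naive rats, 7.29 at 3 d and 9.12 at 14 d. The RNA sensors Rig1 (6.95 and 8.98) and Ifih1 (6.87 and 8.69) were higher, as were Irf8 (2.38), a factor of myeloid cells, Irf9 (1.72) and Irf1 (1.34). The receptor chain Ifngr1 for interferon gamma was higher by 1.41, but Ifnar1, a chain of the type I interferon receptor, differed by 0.16, and the kinases Jak1 and Jak2 by 0.27 and 0.26. The sensor adaptor Mavs differed by 0.15 and Irf3, which acts directly after the sensors, by 0.38. Stat2 was at 0.81, short of 2-fold. The interferon genes themselves, Ifnb1 (5.29 and 5.53) and Ifng (5.54 and 5.72), did not reach the filter.

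The interferon element was more frequent among promoters of higher genes. It was found in the 250 bases before the start of 902 of 27457 promoters in the RefSeq table (3.29%), in 238 of 9051 genes that reached the filter (2.63%), in 44 of 406 higher genes (10.8%) and in 1 of 28 lower genes. Among genes within 2-fold the share was 193 of 8617 (2.24%). Of the interferon-induced effectors, 20 of 28 with a promoter in the table held it (71.4%), and among higher genes outside the interferon and MHC class I lists the share was 23 of 368 (6.25%). Effectors with and without the element did not stand apart in size: the median difference was 1.80 over 20 genes with it and 1.66 over 8 without it, where 17 and 6 were higher. Mx1, with the largest difference among those 28, and Ifi47 lacked a match in this window, which says only that these letters are not there.

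**Figure D3:**
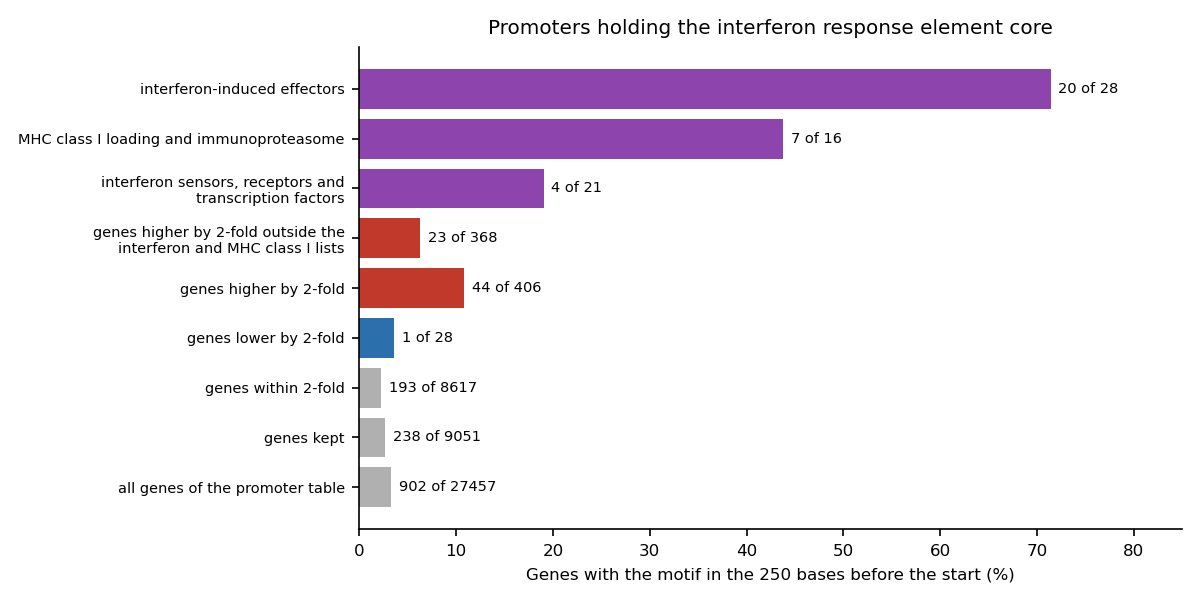
Share of promoters (percent) that hold the core of the interferon-stimulated response element in the 250 bases before the gene start, for the gene groups named on the axis, with the counts beside the bars; genes kept are those that reached the filter. The share is 2.63% among genes that reached the filter, 10.8% among higher genes and 71.4% among interferon-induced effectors.

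Antigen presentation genes were higher in part, 9 of 14 in the class II list and 6 of 18 in class I loading. MHC class II molecules show peptides to CD4 T cells and are made by activated microglia and macrophages. Cd74, the chaperone that guides class II molecules, was 8.37 and 11.78. The class II chains RT1-Da and RT1-Ba were 6.40 and 9.31, and 6.55 and 8.88. Of 14 genes in the class II list, 9 were higher, with a median of 1.29, while RT1-DOa, which moderates peptide loading, was at 0.01. The list also holds Ctss, Cd86, Cd80 and Cd40, which are not class II chains. Of these, Ctss (1.39), Cd86 (1.75) and Cd40 (1.10) are counted among the higher genes. Of 18 genes of class I loading and of the immunoproteasome, 6 were higher, led by the proteasome subunit Psmb9 (6.50 and 8.55), the class I gene RT1-S3 (7.11 and 8.66) and the transporter Tap1 (7.09 and 8.52). Psme1 was higher by 1.23 on its chosen probe set, but by 0.69 as the mean of its 2 probe sets.

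Complement, a cascade of blood and tissue proteins that tags debris and microbes, was higher in part. Of 24 measured genes, 12 were higher and 0 lower, with a median of 0.80, against 1.71 over the 21 that reached the filter. C3, the central protein of the cascade, was 7.99 in naive rats, 9.46 at 3 d and 11.62 at 14 d. Serping1, the inhibitor of C1, was 7.45 and 10.83, the 3 C1q chains C1qa, C1qb and C1qc were higher by 1.93, 2.10 and 2.52, and C1r and C1s, the proteases of the same complex, by 2.16 each. The receptors C3ar1 (2.32) and the integrin chain Itgb2 (2.84) were higher, whereas the membrane regulators Cd46, Cd55 and Cd59b lay between -0.15 and -0.06. Cr1l, also in this list, differed by 0.41.

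Chemokines, small proteins that draw leukocytes, split. Cxcl16, Cxcl10, Ccl2, Cxcl13, Cxcl11, Ccl6 and Ccl9 were the 7 higher members of 22. Ccl2, which draws monocytes, was 6.93 in naive rats, 11.38 at 3 d and 9.40 at 14 d, so its 3 d value was the larger, while Cxcl10, an interferon-induced chemokine, was 6.22, 7.54 and 8.73. The neuronal chemokine Cx3cl1 was at -0.33. Among cytokines and growth factors, 5 of 27 were higher, beside 4.88% of all genes. They were Igf1 (7.62 and 10.39), a growth factor made by microglia, Igf2, Tgfb1 (7.68 and 9.46), Csf1 and Il18. Il1b, an early inflammatory cytokine, was at -0.12, and Gdnf and Bdnf at -0.06 and -0.14.

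T cell genes were mostly low on both arrays. Of 14 measured T lymphocyte genes, 2 were higher, Cd4 (8.23 and 10.40) and Cd8b (5.77 and 6.86), and 6, with the T cell receptor subunits Cd3d, Cd3e and Cd3g among them, did not reach the filter. The 4 T cell markers Cd3d, Cd3e, Cd3g and Lck summed to 21.6 on the naive and 22.3 on the 14 d array. In rats, Cd4 is also carried by macrophages and microglia. None of the 9 measured natural killer and cytotoxic genes reached 2-fold, and Prf1 and Gzmb, which encode the killing proteins perforin and granzyme B, differed by 0.08 and 0.13. Of 8 B cell genes, 2 were higher (4.88% of all genes), Blnk (2.25) and Cd22 (1.77), both also known from microglia. Cd79b, part of the B cell receptor, was at -0.04.

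Reactive astrocyte genes were higher in part. Of 22 measured members, 11 were higher at 14 d (4.88% of all genes), against 16 at 3 d (6.94% of all genes). Over all genes the count was smaller at 14 d as well, 534 against 760 at 3 d. The median was 1.03 over the 21 members that reached the filter, and 2.27 at 3 d. The intermediate filament genes Gfap and Vim, which build the skeleton of reactive astrocytes, were higher by 2.02 and 2.05. Ceruloplasmin (Cp), a copper protein that oxidises iron, was 7.33 and 10.36. A2m, the protease inhibitor alpha-2-macroglobulin, which is outside this list, was 7.42 and 10.48. Timp1, which inhibits metalloproteinases, was 6.87 on the naive array, 11.51 at 3 d and 9.89 at 14 d, and the heat shock protein Hspb1 was 6.74, 10.69 and 8.99. Serpina3n was 6.16, 10.40 and 7.13, and so was within 2-fold of its naive value at 14 d. The iron-binding protein Lcn2 was 6.52, 9.92 and 7.38. No homeostatic astrocyte gene was past 2-fold: Aqp4, the water channel, differed by 0.78, and Kcnj10, the potassium channel, by -0.30.

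Matrix genes, which encode the material of the scar, were higher in part. Of 28 proteoglycans and matrix glycoproteins, 12 were higher at 14 d and 15 at 3 d, with medians of 0.99 and 1.21 over the 27 that reached the filter. Of all genes, 4.88% were higher at 14 d and 6.94% at 3 d. At 14 d they were led by lumican (Lum, 5.58 and 8.88), Mfap4 (7.76 and 10.03), Fbln1 (8.21 and 10.36), Bgn (9.09 and 11.12) and Dcn (8.90 and 10.94). Of 13 collagen genes, 4 were higher, with a median of 0.31. Col1a1, a main fibrillar collagen of scars, was 8.18 in naive rats, 9.30 at 3 d and 10.37 at 14 d, and Col1a2, Col3a1 and Col12a1 were higher by 2.14, 1.68 and 1.11, while Col5a2 differed by 0.42. Among metalloproteinases and inhibitors, 9 of 22 were higher at 14 d and 10 at 3 d, including Adamts12 (6.95 and 9.51), Mmp12 (5.18 in naive rats, 8.80 at 3 d and 7.28 at 14 d) and Mmp2 (7.77 and 9.30).

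Genes of the meninges, the membranes around the brain, included 10 higher of 17, with a median of 1.42. Igf2, a growth factor of these membranes, was 9.15 in naive rats, 8.80 at 3 d and 11.47 at 14 d. Gjb2, a gap junction protein, was 7.65, 7.73 and 9.59, and Aldh1a2, which makes retinoic acid, was 7.19, 8.61 and 9.31. At 3 d the median of the list was 0.34, and 8 of 17 were already higher (6.94% of all genes at 3 d). The meningeal markers Lum, Slc22a6 and Slc6a13 summed to 21.1 on the naive and 27.1 on the 14 d array, and all 3 were higher. The part of meningeal tissue taken with the dissection was not tested. Endothelial genes showed 2 higher of 26, Angpt2 (1.10) and Angpt1 (1.09), and pericyte genes 2 of 15, Anpep (1.26) and Pdgfrb (1.22). Over all genes, 4.88% were higher at 14 d. Of 11 choroid plexus and ependymal genes, 0 were past 2-fold, and Aqp1 was the largest at 0.92.

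**Figure D4:**
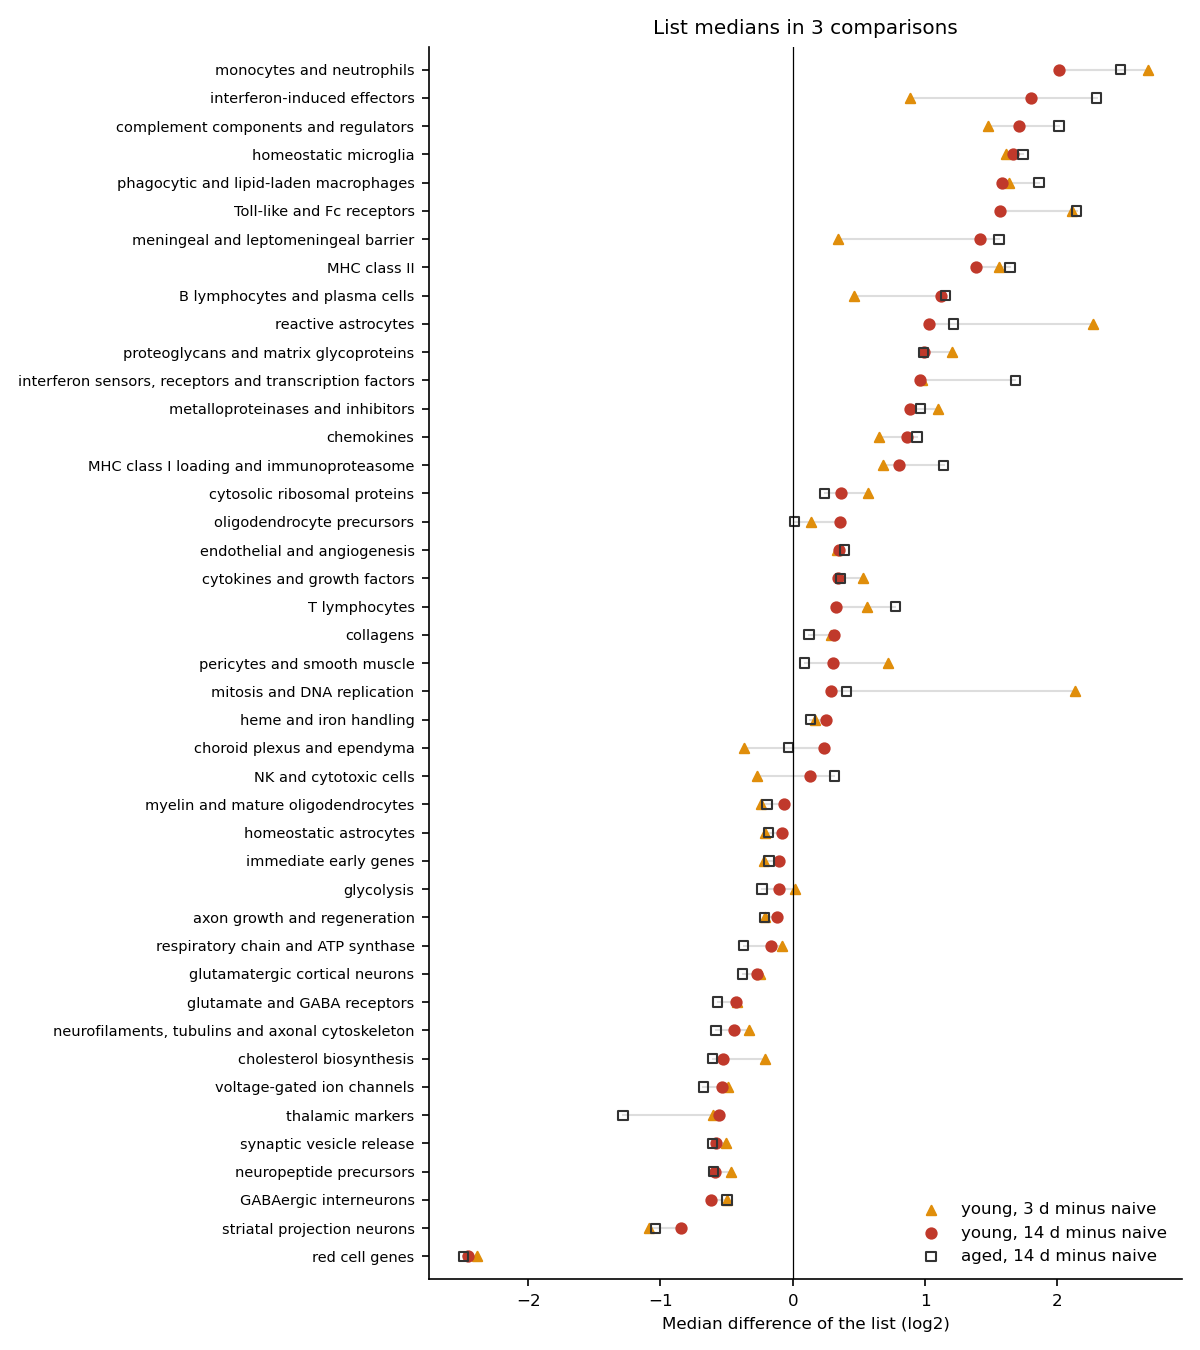
Median log2 difference from naive over the members of each gene list that reached the filter (x axis) for the young 14 d, aged 14 d and young 3 d arrays. The mitosis list stands at 2.14 at 3 d and 0.29 at 14 d in young rats, and the meningeal list at 0.34 and 1.42.

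Cell division genes were mostly within 2-fold of their naive level at 14 d. Of the 34 that reached the filter, 30 lay above 0, where 43.6% of all genes did. With quantile scaling, and with each array centred on its median, 28 did. Of 35 measured genes, 1 was higher, Aurkb (6.51 and 7.66), a mitotic kinase, and the median was 0.29. At 3 d the median of the same list had been 2.14, with 29 genes higher, where 6.94% of all genes were higher at 3 d. Top2a, which untangles DNA, was 6.07 on the naive array, 9.57 at 3 d and 6.89 at 14 d, and Rrm2, which makes DNA building blocks, was 6.47, 10.04 and 6.73. Cdkn3 (5.82, 8.45 and 5.51) was within 2-fold of naive again at 14 d.

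Oligodendrocyte genes, which encode the parts of myelin, stayed close to naive. No member of the myelin list (14 genes, median -0.07) or of the precursor list (9 genes, median 0.35) was past 2-fold. Mog was 11.19 and 10.82, Cldn11 was 11.19 and 11.81, and Pdgfra, the growth factor receptor of precursor cells that is also carried by fibroblasts, was 9.15 and 10.14, at 0.99 just under 2-fold.

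Neuronal genes lay below their naive level in large numbers but by small amounts. All 27 measured synaptic vesicle genes, all 30 voltage-gated channel genes and all 31 glutamate and GABA receptor genes lay below 0, where 56.4% of all genes did, with medians of -0.58, -0.54 and -0.43. Of these, 1, 2 and 0 were lower by 2-fold, beside 0.347% of all genes. Syt2, a calcium sensor of vesicle release, was 9.48 and 8.21, Kcnab3, a potassium channel subunit, was 8.28 and 7.00, and Scn4b, a sodium channel subunit, was 10.33 and 9.24. Snap25, of the fusion machinery, was 12.78 and 12.11, and Cplx1, which clamps it, was 10.78 and 9.85. Among receptors the lowest were Gabrd (9.23 and 8.27) and Gabrg3 (10.03 and 9.10), subunits of GABA receptors, and the glutamate receptor subunit Grin1 was 10.86 and 10.13. With quantile scaling, 30 of the 31 receptor genes lay below 0, and the other two lists were entirely below 0 under each scaling.

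After the globins, the lowest difference was that of Nefm, the medium neurofilament, which was 8.80 at 3 d and 8.30 at 14 d, with differences from naive of -1.20 and -1.70. Nefh, the heavy neurofilament, was 9.08, 8.36 and 7.78. Slc17a6, the vesicular glutamate transporter VGLUT2 of thalamus and brainstem, was 7.88, 6.36 and 6.52. Genes of striatal projection neurons were the neuronal list with the lowest median: of 17 measured, 4 were lower by 2-fold and 15 by 1.5-fold (4.78% of all genes), with a median of -0.85. Rgs9, which turns off dopamine signalling, was 10.04 and 8.69, Tac1, the precursor of substance P, 9.05 and 7.71, and the dopamine receptor Drd2 10.28 and 9.11. With each array centred on its median, 7 of 17 were lower. In young rats at 3 d the median of this list was -1.08, with 10 of 17 lower (0.347% of all genes at 3 d).

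Among GABAergic interneuron genes, 2 of 19 were lower, Calb2 (7.36 and 6.26) and Npy (9.91 and 8.87), and 11 by 1.5-fold. Over all genes, 0.347% were lower by 2-fold and 4.78% by 1.5-fold. Npy was 9.91 at 3 d as well, and the quantile scaling brought its difference to -0.97. Somatostatin (Sst) was 11.39, 10.88 and 10.43, and Pvalb, which marks fast-spiking interneurons, was 8.87, 8.08 and 8.02. Genes named for cortical glutamatergic neurons differed less, with a median of -0.27 and 1 of 13 lower. That gene was Slc17a6, which is also in the thalamic list, as is the next lowest, Ntng1 (-0.81). Of 8 thalamic marker genes, 3 were lower, Slc17a6, Calb2 and Shox2 (6.49 and 5.46), a transcription factor gene that lay under the 40th percentile of both arrays. Of 27 neuropeptide precursors, 3 were lower, Tac1, Npy and Pmch (6.54 and 5.27), the precursor of melanin-concentrating hormone, while Vgf was 9.25 and 8.40. Pmch, like Shox2, lay under the 40th percentile of both arrays. Among neurofilament and cytoskeletal genes, 2 of 18 were lower, Nefm and Nefh, and Ina, another neurofilament protein, was 11.22 and 10.41.

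Several of the lowest genes belonged to none of the lists. Cacng2, which carries AMPA receptors to the synapse, was 10.29 in naive rats and 9.02 at 14 d. Cabp1, a neuronal calcium-binding protein, was 9.35 in naive rats and differed by -1.35, Pcp4l1 was 9.58 and 8.20, and Zfp385b, a zinc finger gene, was 9.58 and 8.33. C14h1orf146 was 7.62 and 6.10, and so ended under the 40th percentile of the 14 d array. In aged rats these 5 genes differed by -0.49, -0.67, -1.06, -0.96 and -0.29, in the same order.

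The activity-driven gene Npas4 was 9.06 and 7.94, the single lower one of 18 immediate early genes (0.347% of all genes). Of 24 axon growth genes, 3 were higher (4.88% of all genes). They were Nrp2 (7.86 and 9.16) and Nrp1 (7.92 and 9.07), receptors for guidance cues, and Atf3 (6.76 and 7.85), a stress-induced transcription factor. Gap43, the growth cone protein, was at -0.45.

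Metabolic gene lists differed by small and mostly one-sided amounts. All 18 cholesterol synthesis genes lay below 0, where 56.4% of all genes did, with a median of -0.53. In this list 1 gene was lower by 2-fold (0.347% of all genes), Fdft1 (10.47 and 9.40), squalene synthase. Quantile scaling brought Fdft1 to -0.99. Insig1, which restrains that pathway, was 9.83 and 8.84. All 31 respiratory chain genes lay below 0, with a median of -0.16, which is within the quartiles of all genes (-0.25 and 0.18). Of 24 ribosomal protein genes, 22 lay above 0, where 43.6% of all genes did, with a median of 0.36. No gene of these 2 lists passed 2-fold. With quantile scaling, 29 of 31 respiratory chain genes lay below 0 and 23 of 24 ribosomal genes above it. Among 20 glycolytic genes, Hk2, a hexokinase, was higher (6.72 and 8.49) and the median was -0.11.

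The globin genes gave the lowest values of all. Hbb-b1 was 9.20 in naive rats, 6.81 at 3 d and 6.45 at 14 d, and Hbb was 10.01, 7.62 and 7.84, so both 14 d values were within 2-fold of the 3 d values. The other red cell genes, Alas2 (6.38 and 5.77), which makes heme in red cell precursors, and Slc4a1 (6.36 and 6.46), the anion exchanger of the red cell membrane, did not reach the filter. Hbb and Hbb-b1 are near-identical copies and may share probes. The red cell markers Hbb, Alas2 and Slc4a1 summed to 22.8 on the naive and 20.1 on the 14 d array, and the part of blood left in the tissue was not tested.

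The aged pair, which shares no array with the young pair, gave similar differences. In aged rats 820 genes (7.49%) were higher and 127 (1.16%) lower at 14 d than in aged naive rats. Of the 534 genes higher in young rats, 503 were higher in aged rats as well, which is 94.2% of the young and 61.3% of the aged list. All 534 lay above 0 in aged rats. Of 38 lower genes, 19 were lower in aged rats, 50% of the young and 15.0% of the aged list, and 36 lay below 0. No gene was higher in one pair and lower in the other. Across 10947 genes the differences of the 2 pairs correlated with r = 0.836, and all genes share the same 4 arrays.

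**Figure D5:**
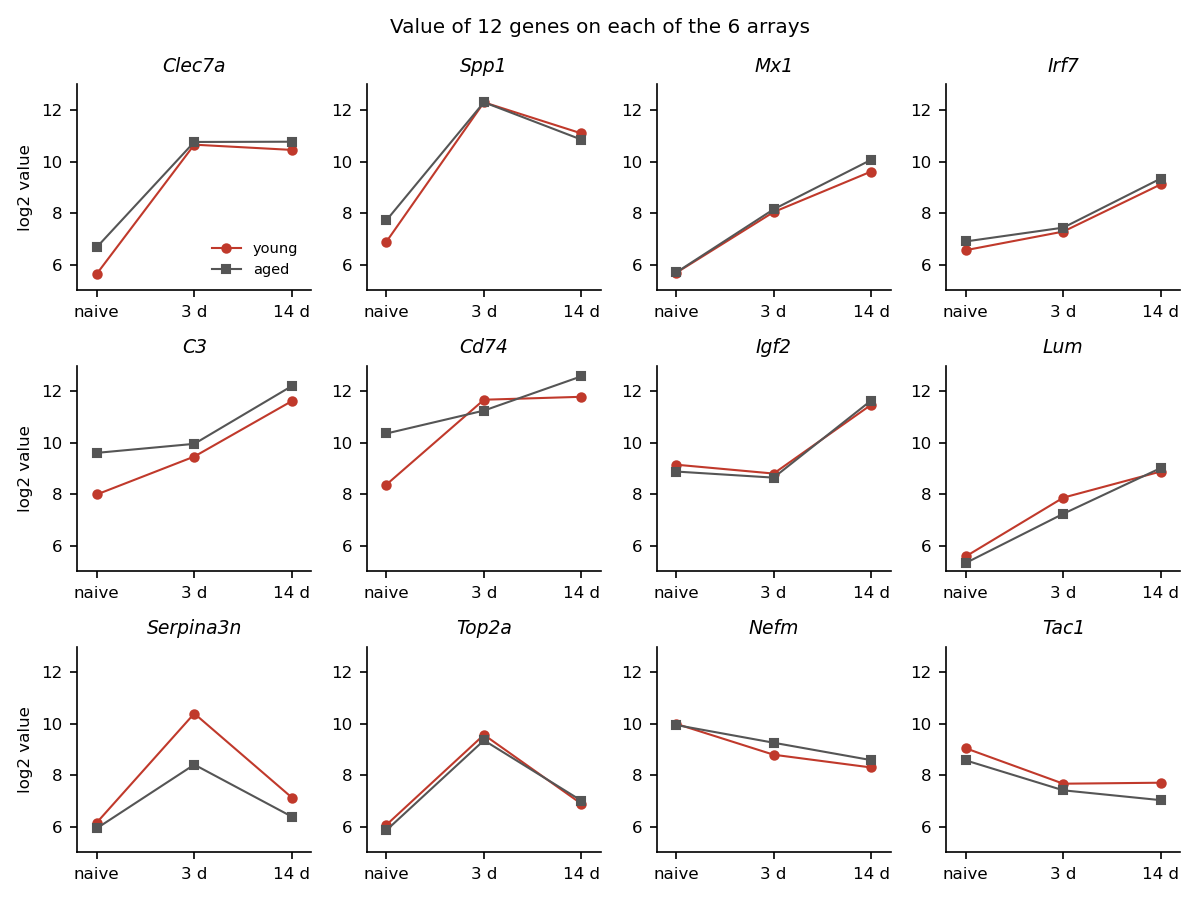
Log2 values on the 6 arrays of genes named in the text. Red circles are young and grey squares aged rats (x axis: naive, 3 d, 14 d), each a single pooled array with no error bar. Mx1 and Irf7 are highest at 14 d, Top2a and Serpina3n at 3 d, and Nefm is lowest at 14 d.

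The genes with the largest distance between the young and the aged difference are given as values, since age and pool cannot be told apart. Lilrb4, an inhibitory receptor of myeloid cells, differed by 1.26 in young and by 4.14 in aged rats. Aim2, a sensor of DNA in the cytosol, differed by 0.45 and 2.61, Cxcl13, which draws B cells, by 2.19 and 4.03, and Ccl3 by 0.93 and 2.73. Slfn4, of the interferon-induced Schlafen family, was at 2.21 and 4.09. In the other direction, Scn7a, a sodium-sensing channel of glia, differed by 3.11 in young and 0.84 in aged rats. Its naive values were 5.49 and 6.70. Th and Slc6a3, genes of dopamine neurons, were within 2-fold in young rats (-0.41 and -0.14) and lower in aged rats (-2.63 and -2.30), where their aged naive values were 8.98 and 8.24 against 6.97 and 6.62 in young naive rats. Tph1, which makes serotonin, and Ctxn3 showed the same order, with -0.64 and -0.07 in young and -2.56 and -1.58 in aged rats. For Th, Slc6a3, Tph1 and Ctxn3 the young and aged 14 d values lay closer together than the naive values did.

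The young 3 d array shares the naive array with this comparison. From 3 d to 14 d, 48 genes (0.438%) were higher and 164 (1.5%) lower in young rats. The largest positive differences over that time were those of Igf2 (2.67), C3 (2.15), Gjb2 (1.87), Irf7 (1.83), Adamts12 (1.77) and Fndc1 (1.73). The most negative were those of Rrm2 (-3.31), Serpina3n (-3.26), Cdkn3 (-2.94), Pbk (-2.80), Pttg1 (-2.72) and Top2a (-2.68). Of these last 6, 5 are genes of the cell cycle.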

How the data were processed

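Per the labels, tissue RNA was extracted with TRIzol, cleaned with RNeasy Plus, amplified with the WT Expression Kit and hybridised to single-channel arrays, 1 pooled array per group. The values that the authors deposited, 1 for each probe set on each array, were taken as log2 from their range, since no base is stated. R 2.14.0 with affy is named in the submitters' processing notes. How arrays were normalized, and the build, is not given in the sources used here. The arrays share nearly equal medians, so a common scale hides an overall change in RNA content, and arrays compress large folds. No batch is given.

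Of 28826 probe sets, 15209 had 1 symbol, 306 several and 13311 none; 15178 matched RefSeq (GRCr8, names and gene order), and 0 symbols changed. Differences were taken with Python 3.11.15, numpy 2.4.6 and pandas 2.3.3, tested on simulated data; no p was computed, since the spread cannot be seen with 1 array per group. A gene was kept if it reached the 40th percentile on at least 1 of 6 arrays. A gene that reached the filter only through a group where it is high had to differ, so counts of lists are over all measured members. Of 923 list genes, 799 were measured (11 by synonym) and 124 unmatched. Members and lists were chosen with earlier results of these data known. Genes named were the 15 largest differences in each direction at or above the array median, up to 5 per list with the largest absolute difference, the 6 in each direction between ages and between 14 d and 3 d, and the promoter genes; others were chosen after their values were seen. RT1, Hbb, Oas, Ifit and Slfn genes may share probes. Array number limits precision.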

Additional observations from a re-analysis of the deposited data

Results flagged for a closer look

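Iqub, an IQ motif gene, was lower by 2-fold in young rats (8.26 on the naive and 6.96 on the 14 d array) and near naive in aged rats (8.02 and 8.12), so its young minus aged difference was -1.39. For Cd200r1, an inhibitory receptor of myeloid cells, the values were 6.84 and 6.55 in young and 6.14 and 7.71 in aged rats, with a young minus aged difference of -1.86. Slc9a4, a sodium and proton exchanger, was 6.19 and 6.89 in young and 7.28 and 6.43 in aged rats, a difference of 1.55. In these 3 genes the young and the aged difference from naive had opposite signs, and the difference was not tested. Outside the named genes, 202 probe sets without 1 gene symbol differed by at least 2-fold at 14 d (150 higher and 52 lower of 7249 that reached the filter).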

How the results depend on the processing

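No paired analysis was possible because each group is 1 array. The 534 higher and 38 lower genes were 537 and 43 with quantile scaling, 489 and 56 with each array centred on its median, 535 and 38 without the filter, 505 and 31 with a filter at the 60th percentile, and 532 and 38 with the mean of a gene's probe sets. A threshold of 1.5-fold gave 1030 and 523, and 3-fold gave 232 and 3. Of the genes named, Psme1 was under 2-fold with the mean of probe sets (0.69), as were Npy (-0.97) and Fdft1 (-0.99) with quantile scaling, while Rxrg, Kcnc1, Sst, Gabrd and Insig1 came past it with centring, and Pdgfra and Idi1 with quantile scaling. No named gene past 2-fold changed sign under these settings. The scaling and filter settings left 197 list medians within 0.110 of their value and moved 17 by more. Counting the element in any listed promoter window, an alternative chosen after seeing the data, gave 46 higher genes with it in place of 44. Cytotoxic genes had no median with the 60th percentile filter. Naive levels near the bottom of the array limit the folds of 157 higher genes.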

Other observations

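The following higher genes belong to none of the lists and were chosen after their values were seen. Cybb, the catalytic subunit of the phagocyte NADPH oxidase, was 6.84 on the naive and 9.71 on the 14 d array, and Adgre1, the macrophage surface protein F4/80, was 7.19 and 9.86. Mpeg1, a pore-forming protein of macrophages, was 7.64 and 10.28, and Gpr183, a receptor for oxysterols, was 6.92 and 9.57. Apobec1, an RNA-editing enzyme, was 5.94 in naive rats, 9.66 at 3 d and 8.66 at 14 d. Ifi30, a thiol reductase that helps class II molecules to present antigen, was 7.08 and 9.82. Olr1, a receptor for oxidised lipoprotein, was 5.15, under the lower quartile of the naive array, and 8.09, and F10, coagulation factor X, was 5.95 and 8.36. In aged rats these genes were higher as well, by 2.50 for Gpr183 and Mpeg1, the smallest, and by 3.39 for Cybb and Apobec1, the largest.

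Several higher genes lie next to each other in the genome. Among 10940 placed genes, 15 runs of at least 3 neighbouring genes that reached the filter were all higher, with 49 genes in them, and 0 such runs were lower. The interferon genes Ifitm2, Ifitm1 and Ifitm3 form one run (differences 1.84, 3.13 and 2.49), and Oas1i, Oas1a and Oas1b another (2.31, 2.46 and 1.79). The run of Ch25h, an enzyme that makes an antiviral oxysterol, Lipa, Ifit2, Ifit3 and Ifit1 holds 5 genes. Other runs are the C1q chains C1qb, C1qc and C1qa, the lectin receptors Clec2g, Clec12a, Clec7a and Olr1 (1.98, 1.07, 4.81 and 2.95), and Tap1, Psmb9, RT1-DMb and RT1-DMa of the histocompatibility region. Genes of such families may share probes, so their values may not be independent.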
